A study of Mus musculus with 4 samples.

Results

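Xenobiotic and steroid metabolism genes were compared between 2 genotypes of mice with colitis, in RNA from inflamed distal colon. Wild-type animals were set beside animals without functional Elf4, which codes for an Ets-family transcription factor. The genes were chosen by symbol: cytochrome P450 (Cyp), flavin monooxygenase (Fmo), alcohol and aldehyde dehydrogenase (Adh, Aldh), aldo-keto reductase (Akr1), hydroxysteroid dehydrogenase (Hsd), carboxylesterase (Ces), epoxide hydrolase (Ephx), quinone reductase (Nqo), glucuronosyltransferase (Ugt), sulfotransferase (Sult), glutathione transferase (Gst, Mgst) and ATP-binding cassette transporter (Abc) genes. The deposited table listed 90 of them among 4121 genes. The wild-type group had the genotype WT and the other group the genotype Elf4-KO. Both were C57BL/6 mice, 8 weeks old, and both were given 3% DSS (dextran sulfate sodium), which damages the epithelium of the colon, with tissue taken on day 6. Each group had 2 samples, and the labels do not say whether these came from separate animals, which part of Elf4 was targeted or which cells lost it. No group without DSS was analysed here, so each difference is between genotypes during colitis.

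The authors gave 1 FPKM value (a fragment count divided by transcript length and library size) per gene and genotype, so every level below is that value, with no spread between samples and no SD. Read depth is unknown. The table held only genes whose q was at most 0.05 and whose levels differed by 2-fold or more. "Rose" and "fell" therefore mean that a gene passed the authors' call, and genes that are not in the table were not analysed here. Unless another value is given, q was 0.000372 in the authors' deposited table, the smallest it holds. Fold differences were computed from the FPKM values, and log2 ratios (Elf4-KO over wild type) after adding 1 to both, which makes differences of low genes look smaller.

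Drugs, plant compounds, bile acids and steroids are handled by enzymes that act in order. Oxidation, reduction or hydrolysis exposes a reactive group, conjugation then attaches glucuronate, sulfate or glutathione, and transporters move the products across membranes. In the gut the absorptive epithelium is the main site of this work, while fibroblasts, endothelium, fat and macrophages hold their own sets of these enzymes, often for steroids, retinoids and lipids.

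Most of the listed genes were lower in the Elf4-KO colon. Of the 90, 61 (67.8%) fell and 29 rose by the authors' call. Of all listed genes, 52.0% fell and 48.0% rose. The median log2 ratio of the 90 genes was -1.29, beside -0.76 for all listed genes. A fall of at least 4-fold was seen for 40 genes (44.4%), beside 24.5% of all listed genes, and a rise of at least 4-fold for 15 (16.7%), beside 12.9%. The median level of the genes that fell was 22.1 FPKM in wild type and 3.33 FPKM in Elf4-KO, beside 23.8 and 5.52 FPKM for all listed genes that fell. For the genes that rose the medians were 3.23 and 12.6 FPKM, beside 4.47 and 13.5 FPKM for all listed genes that rose, so the levels were near those of the whole table. Added up, the 90 genes came to 2990 FPKM in wild type and 1185 FPKM in Elf4-KO, 2.52-fold less. All listed genes came to 273762 and 238295 FPKM, 1.15-fold less.

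**Figure D1:**
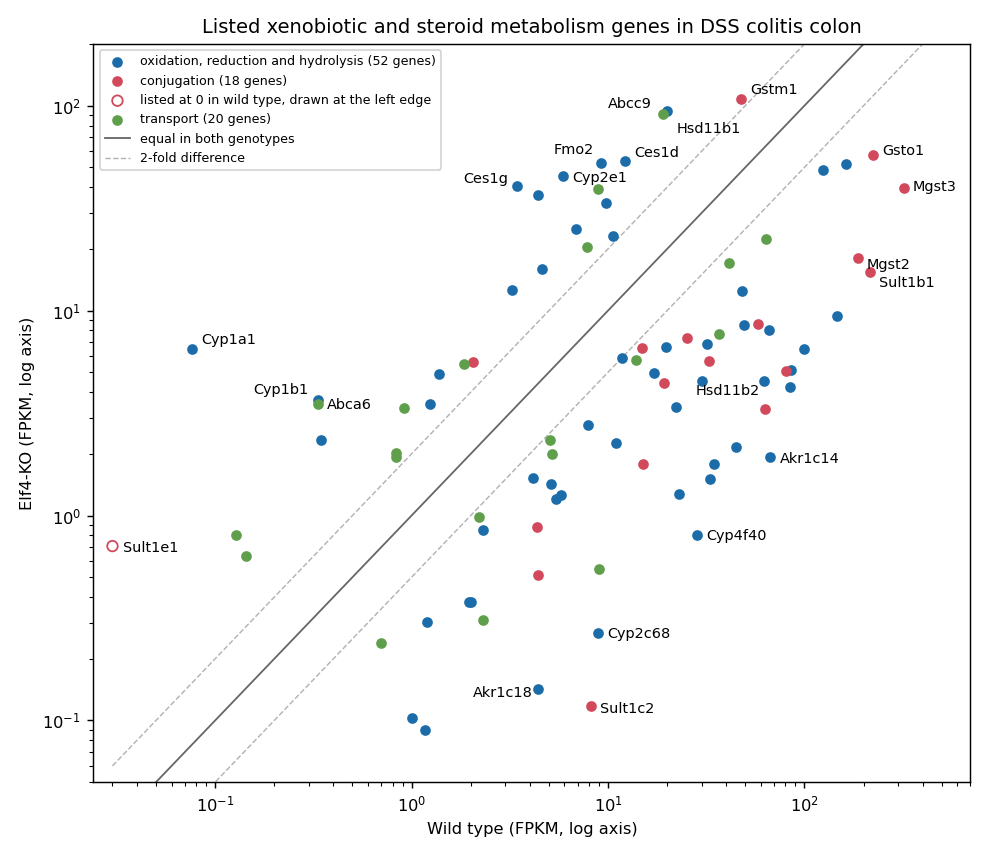
Level of each listed gene in wild type (horizontal, FPKM, log axis) and in Elf4-KO (vertical, FPKM, log axis), 1 point per gene from the authors' single value per genotype, coloured by role. The 61 genes that fell lie below the solid line of equal level. They include those most abundant in wild type, such as Mgst3 at 321 and Gsto1 at 223.5 FPKM. At 10 FPKM or more in wild type, 39 of 44 genes of the set fell (88.6%), beside 71.7% of all listed genes. A cut on the wild-type level alone favours genes that fell. Without it 67.8% of the set and 52.0% of all listed genes fell. No matching cut on the Elf4-KO level was made. The band between the dashed lines is empty because the table held genes with at least a 2-fold difference.

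The roles differed in how far they moved. Of 52 genes of oxidation, reduction and hydrolysis, 36 fell and 16 rose, with a median log2 ratio of -1.34. Of 18 conjugation genes, 15 fell and 3 rose, with a median of -2.14, and their summed level went from 1323 to 289 FPKM, 4.58-fold less. Of 20 transporter genes, 10 fell and 10 rose, and their summed level was 220.5 FPKM in wild type and 228.2 in Elf4-KO. This near-equal sum rests on Abcc9, a channel subunit and not a drug pump, at 18.9 FPKM in wild type and 91.5 in Elf4-KO. The difference between roles was not tested, since the table gives no values per sample.

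**Figure D2:**
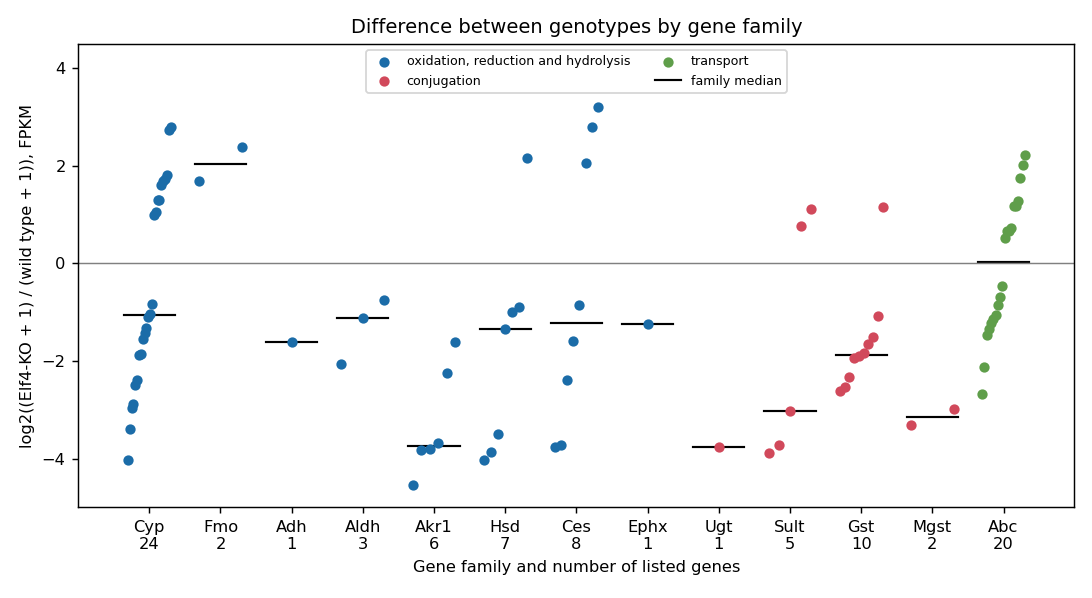
Log2 ratio of Elf4-KO over wild type for each listed gene (FPKM + 1, 1 point per gene, sorted within a family), by gene family, with the number of listed genes under each name and a bar at the family median. All 6 Akr1 genes lie below 0, both Fmo genes lie above it, and the 20 Abc genes are spread over both sides around a median of 0.03.

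Cell type markers moved with the genotype in the same table. The marker lists were written with earlier results of these data known, so their counts are a description and not a test. Of all coding genes 17.5% were listed, and of all listed genes 52.0% fell. All 19 epithelial markers were listed and all fell, with a median log2 ratio of -3.46 and a summed level of 11038 FPKM in wild type and 873 in Elf4-KO, and all 7 listed of 14 small intestine markers fell. The largest log2 ratios were those of Krt19, Krt8 and Elf3 in the first list and of Reg3g, Fabp2 and Reg3b in the second. All 12 listed of 19 fibroblast markers, 13 of 15 endothelial, 11 of 20 monocyte and macrophage and 4 of 12 fat markers rose, and 10 of 12 listed neutrophil markers rose, while Ly6g and Ltf fell. The largest log2 ratios were those of Dcn, Mmp2 and Pdgfrb for fibroblasts, Flt1, Emcn and Lyve1 for endothelium, Arg1, Chil3 and Marco for macrophages, and Mmp8, Ngp (q = 0.000998) and Retnlg for neutrophils. The listed fat markers were Fabp4, Cfd, Cidec and Retn (q = 0.03). The summed fibroblast markers went from 1764 to 5886 FPKM, endothelial from 195 to 577, macrophage from 265 to 1252, neutrophil from 1210 to 4244 and fat from 134 to 633. Ly6g, the listed neutrophil marker most abundant in wild type, went against the rise of its sum, from 854 to 146 FPKM. Of 15 liver markers 5 were listed, 4 higher and 1 lower. Tat, the most abundant of them in wild type, fell from 64.4 to 10.8 FPKM, while Trf (60.1 to 157 FPKM, q = 0.0117) and Fgb (0.0426 to 0.844 FPKM, q = 0.0466) rose, and Fga and Apoa1 were listed at 0 in wild type and at 0.993 and 3.40 FPKM in Elf4-KO. No smooth muscle marker (of 11) and no marker of adrenal or gonadal steroid cells (of 10) was listed. In bulk tissue, fewer cells of a type and less RNA per cell cannot be told apart, and the part of cell makeup in the gene differences below was not tested. Elf4 itself fell from 16.4 to 3.51 FPKM, 4.68-fold, in a tissue whose cell type markers moved in both directions. What the cell makeup adds to this fall was not tested.

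Among the cytochrome P450 genes, the enzymes that insert oxygen into drugs, fatty acids and steroids, 14 fell and 10 rose, with a median log2 ratio of -1.07. The fatty acid and leukotriene hydroxylases of the Cyp4f group and the drug oxidases of the Cyp2c and Cyp2d groups held the largest falls. Cyp4f40 fell from 28.5 to 0.805 FPKM (35.4-fold). Cyp2d10 fell from 23.0 to 1.27 FPKM (18.1-fold) and Cyp2d34 from 65.7 to 8.00 FPKM (8.22-fold). Cyp2c68 fell from 8.92 to 0.267 FPKM, 33.4-fold, which rests on a low Elf4-KO level. Cyp2d10 and Cyp2c68 share 40.5% and 43.3% of their 50-base transcript windows with other genes, mostly Cyp2d11 and Cyp2c40, so their values may hold reads of those copies.

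The other P450 genes that fell were Cyp4f14, Cyp3a13, Cyp2d9, Cyp51, Cyp2s1, Cyp2j6, Cyp2d12, Cyp2d26, Cyp2c65 and Cyp2r1. Their folds lay between 2.70 for Cyp2r1, a vitamin D 25-hydroxylase, and 6.68 for Cyp4f14. Cyp2r1 had q = 0.0368, Cyp2c65 0.021, Cyp2d26 0.0209 and Cyp2d12 0.0137 in the authors' deposited table. Cyp2d9 and Cyp2c65 share 29.0% and 20.6% of their transcript windows with other genes, so their values may hold reads of those. Cyp3a13, of the family that oxidises many drugs and steroids, fell from 22.1 to 3.39 FPKM (6.53-fold). Cyp51, the lanosterol demethylase of cholesterol synthesis, was listed at 48.1 FPKM in wild type and 12.5 in Elf4-KO (3.86-fold), with a deposited locus that also spans Akap9.

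The P450 genes that rose were mostly low in wild type. Cyp1a1, which oxidises polycyclic aromatic hydrocarbons and is the classic target of the aryl hydrocarbon receptor Ahr, rose from 0.0760 to 6.49 FPKM, with q = 0.0137 in the authors' deposited table. That is 85.4-fold, the largest ratio among the 90 genes apart from Sult1e1, which was listed at 0 in wild type, and it rests on a wild-type level near 0. On the log2(FPKM + 1) scale its ratio was 2.80. Cyp1b1, which oxidises the same hydrocarbons and oestrogens, rose from 0.336 to 3.67 FPKM (10.9-fold). Cyp2e1, the ethanol-oxidising form, rose from 5.92 to 45.2 FPKM (7.64-fold) and had the highest Elf4-KO level of the family.

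The other P450 genes that rose were Cyp4b1 (q = 0.0256), Cyp2c55, Cyp4f17, Cyp26b1, Cyp2d22, Cyp4f18 and Cyp7b1, between 2.195-fold for Cyp2c55 and 6.76-fold for Cyp26b1. Cyp26b1, which clears retinoic acid, rose from 0.346 to 2.34 FPKM. Cyp7b1, the oxysterol 7-alpha-hydroxylase, rose from 6.86 to 25.0 FPKM (3.65-fold). Cyp4f18, a leukotriene B4 hydroxylase of neutrophils, was listed at 9.73 FPKM in wild type and 33.5 in Elf4-KO (3.44-fold, q = 0.00128), with a deposited locus that also spans Zfp961. Cyp4f40 and Cyp4f14 of the same group moved the other way.

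The promoters of 4 P450 genes show the letters searched for below. Each is the 150 bases before the transcription start in RefSeq on GRCm38.p6, written 5′ to 3′ on the gene's strand. Cyp1a1 and Cyp1b1 are shown because both rose and are known Ahr targets, and Cyp2c65 and Cyp2c68 because both fell and carry a letter match of the element bound by Hnf4a. Capitals mark GCGTG, the core of the dioxin response element bound by Ahr, or its reverse complement CACGC, and CAAAGTCCA, a match of the Hnf4a element. The windows are chr9:57697463-57697612 on the plus strand for Cyp1a1, chr17:79715062-79715211 on the minus strand for Cyp1b1, chr19:39060856-39061005 on the plus strand for Cyp2c65 and chr19:39741102-39741251 on the minus strand for Cyp2c68.
Cyp1a1: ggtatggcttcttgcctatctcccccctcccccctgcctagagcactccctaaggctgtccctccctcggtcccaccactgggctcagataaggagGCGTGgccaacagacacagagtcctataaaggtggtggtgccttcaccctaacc
Cyp1b1: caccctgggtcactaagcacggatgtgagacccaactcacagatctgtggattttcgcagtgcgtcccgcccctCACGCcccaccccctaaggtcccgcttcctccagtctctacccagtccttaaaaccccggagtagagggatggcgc
Cyp2c65: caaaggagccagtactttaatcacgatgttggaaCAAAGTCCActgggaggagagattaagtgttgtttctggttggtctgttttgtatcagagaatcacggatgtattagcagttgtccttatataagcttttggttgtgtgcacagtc
Cyp2c68: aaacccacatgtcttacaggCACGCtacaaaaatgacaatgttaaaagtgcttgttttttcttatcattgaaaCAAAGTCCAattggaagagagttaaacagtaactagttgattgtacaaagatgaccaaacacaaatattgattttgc
In these windows GCGTG begins 54 bases before the start of Cyp1a1, and CACGC begins 76 bases before the start of Cyp1b1. CAAAGTCCA begins 116 bases before the start of Cyp2c65 and 77 bases before that of Cyp2c68, and Cyp2c68 also holds CACGC.

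Such letters were counted on both strands from 250 bases before to 50 bases after the RefSeq start, for the 68 of 90 genes with an entry. CAAAGTCCA was found for 5 of the 68 (7.35%): Abcd3, Cyp2c65, Cyp2c68, Hsd3b3 and Sult1b1. These 5 were among the 50 genes with an entry that fell, and none of the 18 that rose held it. Cyp2c65 and Cyp2c68 are neighbours of the same family that share descent, so their matches are not independent observations. CAAAGTCCA was found for 150 of all 27025 genes with an entry (0.555%) and for 24 of 2924 listed genes (0.821%). A gene with several promoter entries was counted once if any of them matched, so such genes had more chance of a match. They were in 18 of 1528 listed genes that fell (1.18%) and in 6 of 1396 that rose (0.430%). At so low a share, their absence from 18 genes shows no difference. The matches of Abcd3, Hsd3b3 and Sult1b1 begin after the start. GCGTG was found for 21 genes (30.9%), 6 of 18 that rose and 15 of 50 that fell, beside 35.2% of all genes and 48.2% of listed genes. TGACNNNGC, the core of the antioxidant response element, was found for 12 genes (17.6%), beside 13.99% of all genes and 16.6% of listed genes. CCGGAAGT, a letter form of the site bound by Ets factors, was found for 1 gene, Abcc10 (1.47%), beside 4.31% of all genes and 3.21% of listed genes. A match is a description of the letters and not a measured binding site.

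Both flavin monooxygenases rose. Fmo1 rose from 3.23 to 12.6 FPKM (3.90-fold, q = 0.000694) and Fmo2 from 9.18 to 52.2 FPKM (5.69-fold). These enzymes oxidise nitrogen and sulfur atoms of drugs and amines. The alcohol and aldehyde dehydrogenases moved the other way. Adh1, which oxidises ethanol and retinol, fell from 162 to 52.2 FPKM (3.10-fold). Aldh1l1, a folate enzyme, fell from 31.7 to 6.87 FPKM (4.62-fold). Aldh3b2 and Aldh1a7 were low in both genotypes, from 1.99 to 0.379 FPKM (q = 0.00832) and from 1.19 to 0.302 FPKM (q = 0.0416). Aldh3b2 shares 24.2% of its transcript windows with other genes, mostly Aldh3b3. Ephx2, the soluble epoxide hydrolase that inactivates epoxides of arachidonic acid, fell from 7.94 to 2.76 FPKM (2.88-fold, q = 0.00184). Of the Nqo genes, none was listed.

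All 6 listed aldo-keto reductases fell, with a median log2 ratio of -3.75, beside -0.76 for all listed genes and -3.46 for the epithelial markers. The families with more listed genes had medians of -1.87 (Gst), -1.34 (Hsd), -1.22 (Ces), -1.07 (Cyp) and 0.03 (Abc). The Akr1c enzymes reduce ketones of steroids, prostaglandins and xenobiotics. Akr1c14, a 3-alpha-hydroxysteroid dehydrogenase, fell from 67.2 to 1.93 FPKM, 34.9-fold. Akr1c18, which inactivates progesterone, fell from 4.42 to 0.142 FPKM (31.2-fold, q = 0.0354), a fold that rests on an Elf4-KO level near 0. Akr1c19 fell from 34.7 to 1.78 FPKM (19.5-fold). Akr1c13 was the most abundant of the family and fell from 146 to 9.38 FPKM (15.6-fold), and Akr1c12 fell from 85.1 to 5.13 FPKM (16.6-fold). Akr1c12 and Akr1c13 share 28.6% of their transcript windows, mostly with each other, so their reads may not be separated. The summed level of the 5 Akr1c genes went from 337 to 18.4 FPKM. Akr1e1 fell least, 3.46-fold.

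Of the 7 hydroxysteroid dehydrogenases, which set the activity of steroid hormones by oxidation or reduction, 6 fell and 1 rose. Hsd17b2, which converts oestradiol and testosterone to less active ketones, fell from 84.1 to 4.24 FPKM (19.8-fold). Hsd11b2, which inactivates corticosterone and so shields the mineralocorticoid receptor, fell from 62.1 to 4.55 FPKM (13.7-fold). Hsd11b1, which regenerates corticosterone, rose from 20.1 to 93.9 FPKM (4.68-fold, q = 0.00312). Hsd11b2 was thus at 3.09 times the level of Hsd11b1 in wild type, and Hsd11b1 at 20.7 times the level of Hsd11b2 in Elf4-KO, both from FPKM, which is scaled by length. The deposited locus of Hsd11b1 is 3.32 times as long as the annotated gene and also spans Lamb3 and G0s2, so its value may hold reads of these neighbours, and Hsd11b1 was the sole Hsd gene that rose.

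Hsd3b3, of the family that makes progesterone and androstenedione from their precursors, fell from 45.1 to 2.17 FPKM (20.8-fold, q = 0.00476). Its deposited locus spans Hsd3b2, Hsd3b4 and Hsd3b5 and it shares 33.96% of its transcript windows with other genes, so the value may belong to the group rather than to 1 gene. Hsd17b12, which acts in fatty acid elongation, fell from 124.5 to 48.5 FPKM (2.57-fold). The remaining falls were Hsd17b13 (13.1-fold, q = 0.0403), a lipid droplet protein at 1.17 FPKM in wild type, and Hsd17b7 (2.01-fold, q = 0.00263), an enzyme of cholesterol synthesis and the smallest difference of the 90 genes.

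The carboxylesterases, which hydrolyse ester drugs and lipids, split by subfamily. All 5 listed Ces2 genes fell and all 3 listed Ces1 genes rose. Ces2e fell from 98.9 to 6.53 FPKM (15.1-fold), Ces2a from 33.2 to 1.51 FPKM (22.05-fold) and Ces2c from 49.4 to 8.55 FPKM (5.78-fold). Ces2g and Ces2b fell 4.59-fold and 9.71-fold, the latter at 0.999 FPKM in wild type (q = 0.0387). In the other direction, Ces1g rose from 3.45 to 40.3 FPKM (11.7-fold) and Ces1f from 4.40 to 36.7 FPKM (8.33-fold). Ces1d, a triacylglycerol hydrolase of fat and liver, rose from 12.2 to 53.9 FPKM (4.43-fold). The summed Ces2 level went from 188 to 17.9 FPKM and the summed Ces1 level from 20.02 to 131 FPKM, so the more abundant subfamily was Ces2 in wild type and Ces1 in Elf4-KO. Ces2c and Ces2a share 42.2% and 22.2% of their transcript windows with other genes.

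The gene with the highest wild-type level of the 90 was a conjugation gene. Mgst3, a microsomal glutathione transferase and peroxidase, fell from 321 to 39.7 FPKM (8.09-fold). Mgst2, which can make leukotriene C4, fell from 187 to 18.0 FPKM (10.4-fold). Together they went from 509 to 57.8 FPKM. Of the 10 cytosolic or peroxisomal Gst genes, which attach glutathione to electrophiles, 9 fell. Gstk1 fell from 57.7 to 8.57 FPKM (6.73-fold). Gstp3 fell from 15.1 to 1.79 FPKM (8.45-fold, q = 0.000998) and Gstp2 from 32.7 to 5.70 FPKM (5.72-fold). Gsta4, which acts on the lipid peroxidation product 4-hydroxynonenal, fell from 19.3 to 4.44 FPKM (4.36-fold). Gsto1 was listed at 223.5 FPKM in wild type and 57.4 in Elf4-KO (3.89-fold), with a deposited locus that also spans Gsto2, Cfap43 and Itprip. Gstm6 (q = 0.000998), Gstt3 (q = 0.00128), Gsta1 (q = 0.0209) and Gstt2 (q = 0.00692) fell between 2.26-fold and 8.56-fold.

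Gstm1 was the exception among the glutathione transferases. It rose from 47.5 to 107.9 FPKM (2.27-fold), the highest Elf4-KO level of the 90 genes. The nearby Gstm6 was at 4.39 FPKM in wild type and 0.514 in Elf4-KO. Values of Gstp2, Gsta1 and Gstm1 may hold reads of other genes, since they share 72.6%, 89.7% and 23.1% of their transcript windows with other genes, Gstp2 mostly with Gstp1. The same holds for Gstt3, which shares 26.0% of its windows with Gm20441.

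The 3 sulfotransferases that fell, and the glucuronosyltransferase, fell by more than 10-fold. Sult1b1, which sulfates phenols and thyroid hormones, fell from 216 to 15.4 FPKM (14.02-fold). Sult1d1, which sulfates catecholamines, fell from 63.0 to 3.33 FPKM (19.0-fold). Sult1c2 fell from 8.15 to 0.117 FPKM (69.5-fold, q = 0.0117), the largest fall of the 90 genes as a fold. That fold rests on an Elf4-KO level near 0. On the log2(FPKM + 1) scale its ratio was -3.03, and the largest fall was that of Akr1c14, -4.54. Ugt2b34, the sole listed member of its family, fell from 80.8 to 5.07 FPKM (16.0-fold). Moving the other way, Sult1e1, the oestrogen sulfotransferase, was listed at 0 in wild type and at 0.709 FPKM in Elf4-KO. Sult4a1, a brain form without a well-known substrate, rose from 2.05 to 5.64 FPKM (2.75-fold, q = 0.00453). Both were low beside the 287 FPKM of the summed Sult1 genes in wild type.

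The transporters fell and rose in equal number, and not all Abc proteins carry drugs. Abcg5, which pumps sterols back into the gut lumen as a pair with Abcg8, fell from 8.96 to 0.550 FPKM (16.3-fold). Abcg8 fell from 2.31 to 0.311 FPKM (7.42-fold, q = 0.0371), and the authors' table gives both genes 1 shared locus. Abcc3, which exports glucuronides and bile acids to the blood side, fell from 36.8 to 7.70 FPKM (4.78-fold). Abcb1a, the P-glycoprotein that returns drugs to the lumen, fell from 41.2 to 17.0 FPKM (2.42-fold). Abcd3, a peroxisomal fatty acid transporter and the most abundant of the family in wild type, fell from 63.6 to 22.3 FPKM (2.85-fold). Abcb8 (q = 0.00609), Abcg3 (q = 0.00312), Abcc10 (q = 0.0155), Abcb9 and Abca13 (q = 0.0371) fell between 2.15-fold and 2.93-fold, Abcb9 with the largest q among the 90 genes, 0.0482.

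The transporter genes that rose included lipid exporters and a channel subunit. Abcc9, the sulfonylurea receptor subunit of potassium channels in muscle and pericytes and not a drug pump, rose from 18.9 to 91.5 FPKM (4.83-fold). Abca1, which loads cholesterol onto apolipoproteins, rose from 8.88 to 39.3 FPKM (4.42-fold). Abca6 rose from 0.335 to 3.51 FPKM, 10.5-fold. Abcc1, which exports glutathione conjugates such as leukotriene C4, rose from 7.80 to 20.5 FPKM (2.63-fold). Abcb4 (q = 0.0141), Abcg4 (q = 0.0478), Abca4 (q = 0.0101), Abca8b (q = 0.00542), Abca5 and Abcd2 rose between 2.31-fold and 6.25-fold, none above 5.46 FPKM in either genotype. By subfamily, 5 of 6 Abca genes rose, while 3 of 4 Abcb and 3 of 4 Abcg genes fell.

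Many of the genes lie beside each other. With a gap of at most 1000 kb, 53 of the 90 genes formed 17 groups of neighbours. In 10 of them all listed genes moved in 1 direction, and in 7 both directions occurred. The 10 include Hsd17b13 and Abcg3, which are of different families. Since 67.8% of the 90 genes fell, small groups can share a direction without any link between neighbours. Other listed genes were not grouped in this way, so the count has no share to stand beside. On GRCm38 the 3 Ces1 genes lie at chr8:93166068-93337308 and all rose. The 5 Ces2 genes and Hsd11b2 lie on the same chromosome at chr8:104734003-105523988 and all fell. The 6 Akr1 genes at chr13:4049011-4609174 and the group of Aldh3b2, Gstp2 and Gstp3 at chr19:3972328-4059569 also fell throughout. Abca8b, Abca6 and Abca5 at chr11:109932190-110337716, and Fmo1 and Fmo2 at chr1:162829561-162898726, rose throughout. Neighbours of 1 family share descent and are not independent observations.

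In the mixed groups, single genes departed from their neighbours. At chr15:82370527-82794294, Cyp2d22 rose from 4.59 to 16.0 FPKM (3.48-fold) while the 5 other listed Cyp2d genes fell, and the summed level of all 6 went from 111 to 29.3 FPKM. At chr17:32506050-32917342, Cyp4f17 rose 3.53-fold (q = 0.00238) beside the falls of Cyp4f40 and Cyp4f14. At chr19:39007019-39741054, Cyp2c55 rose from 10.6 to 23.2 FPKM (2.195-fold, q = 0.00263) beside the falls of Cyp2c68 and of Cyp2c65 (4.17 to 1.53 FPKM, q = 0.021). At chr5:86889767-87591594, Ugt2b34, Sult1b1 and Sult1d1 fell and Sult1e1 rose. Abcb1a and Abcb4 on chromosome 5 also moved in opposite directions.

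**Figure D3:**
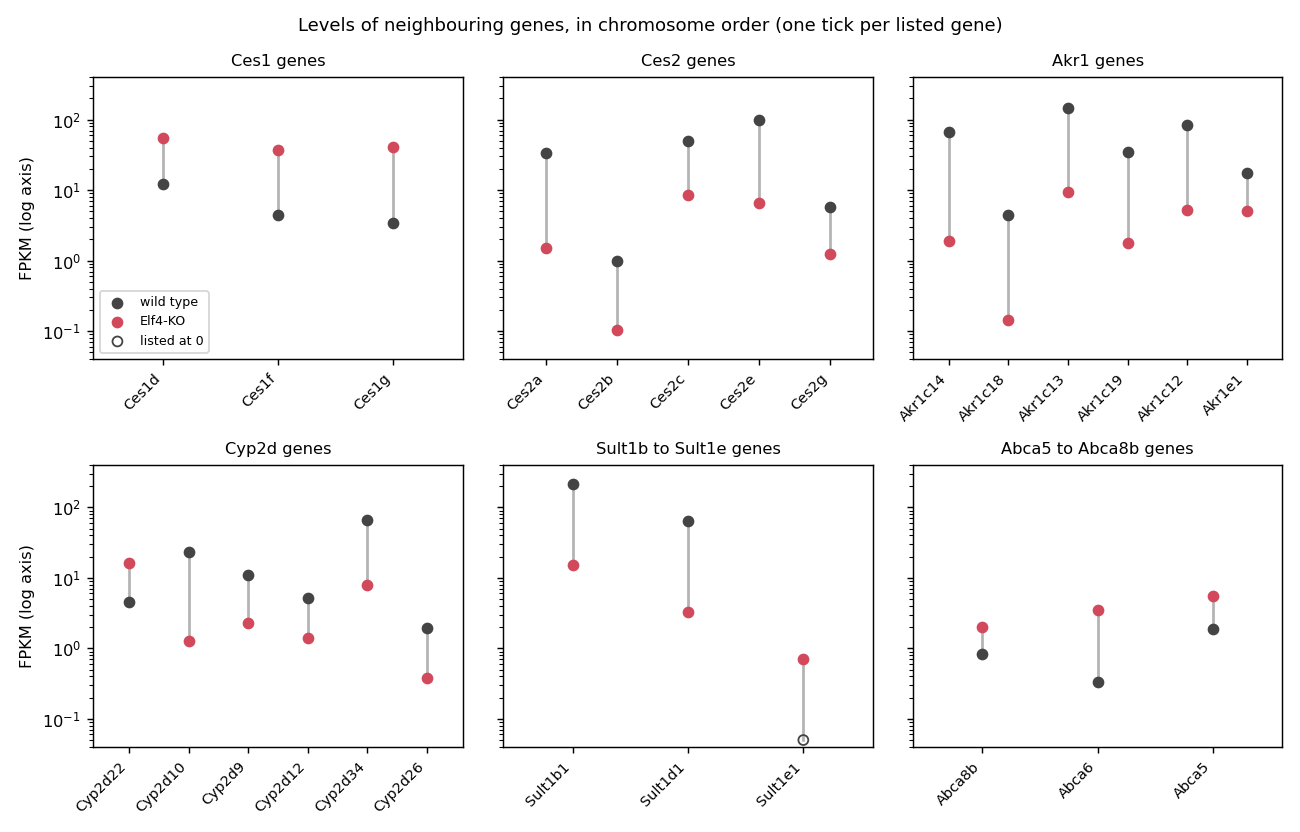
Levels (FPKM, log axis) of listed genes in 6 groups of related neighbours, in chromosome order, with the wild-type value in dark grey, the Elf4-KO value in red and a line joining them, and an open circle for a gene listed at 0. The Ces1 genes rise and the Ces2 and Akr1 genes fall throughout, while Cyp2d22 and Sult1e1 move against their neighbours.

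Genes that control or feed these enzymes were counted from lists of other genes of the pathway. Of 33 receptors and regulators of xenobiotic genes, 15 were listed, of which 13 fell and 2 rose, with a median log2 ratio of -1.96. The intestinal regulator Hnf4a fell from 142 to 8.93 FPKM, and its relative Hnf4g from 13.3 to 0.350 FPKM. Cdx1, a homeobox factor of intestinal epithelium, fell from 103.9 to 6.25 FPKM. The xenobiotic receptor PXR (Nr1i2) fell from 17.6 to 1.83 FPKM and the bile acid receptor FXR (Nr1h4) from 51.0 to 10.9 FPKM. Maff and Mafg, small Maf partners of Nrf2, rose from 20.7 to 55.9 FPKM and from 13.3 to 32.3 FPKM (q = 0.00335). Ahr was not in the table and was not analysed here.

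Of 22 genes for electron donors and cofactors, 6 were listed, 3 in each direction. H6pd, which supplies NADPH to Hsd11b1 in the endoplasmic reticulum, rose from 15.3 to 63.5 FPKM. Papss2, which makes the sulfate donor used by sulfotransferases, fell from 43.3 to 6.31 FPKM, and Bpnt1, which removes a by-product of sulfation, fell from 52.6 to 14.5 FPKM. Por, the electron donor of microsomal P450 enzymes, rose from 30.1 to 69.4 FPKM. Of 38 glutathione and thioredoxin genes 13 were listed, 7 lower and 6 higher. Heme oxygenase Hmox1 rose from 20.6 to 596 FPKM, while the epithelial glutathione peroxidase Gpx2 fell from 569 to 24.9 FPKM and Ggt6 from 15.2 to 0.766 FPKM.

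Of 44 other drug-modifying enzymes 15 were listed, of which 12 fell. Acsm3, a medium-chain acyl-CoA synthetase, fell from 65.7 to 1.70 FPKM. The amine oxidase Maoa fell from 124.8 to 16.7 FPKM and the sulfide oxidation enzyme Ethe1 from 210.8 to 36.0 FPKM. Of 32 uptake transporters 11 were listed, 5 lower and 6 higher, with Slc22a18 falling from 74.0 to 5.58 FPKM, the peptide transporter Slc15a1 from 29.2 to 3.97 FPKM and Slc10a6, which takes up sulfated steroids, rising from 3.72 to 44.9 FPKM. Of 30 retinoid genes outside these families 8 were listed, of which 7 fell. The retinol dehydrogenase Rdh16 fell from 80.1 to 6.74 FPKM and Dhrs9 from 77.6 to 12.3 FPKM, while Rdh12 rose from 2.13 to 16.2 FPKM.

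Of 46 steroid and cholesterol genes outside the families 24 were listed, 15 lower and 9 higher. The largest falls on the log2(FPKM + 1) scale, Msmo1 (203.6 to 35.8 FPKM), Dhcr7 (29.6 to 4.78 FPKM) and Idi1 (63.0 to 12.2 FPKM), are enzymes of cholesterol synthesis, as are the members Cyp51 and Hsd17b7. Fkbp5, Tsc22d3 and Per1, which glucocorticoids are known to induce, rose from 19.8 to 62.8, from 34.7 to 95.6 and from 8.07 to 36.8 FPKM. The mineralocorticoid receptor Nr3c2, from the list of receptors and regulators, fell from 22.1 to 3.13 FPKM. These 4 were picked out after their values were seen, because of their place beside Hsd11b1 and Hsd11b2. They are not a full set of steroid targets, and a difference in glucocorticoid action was not tested.

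**Figure D4:**
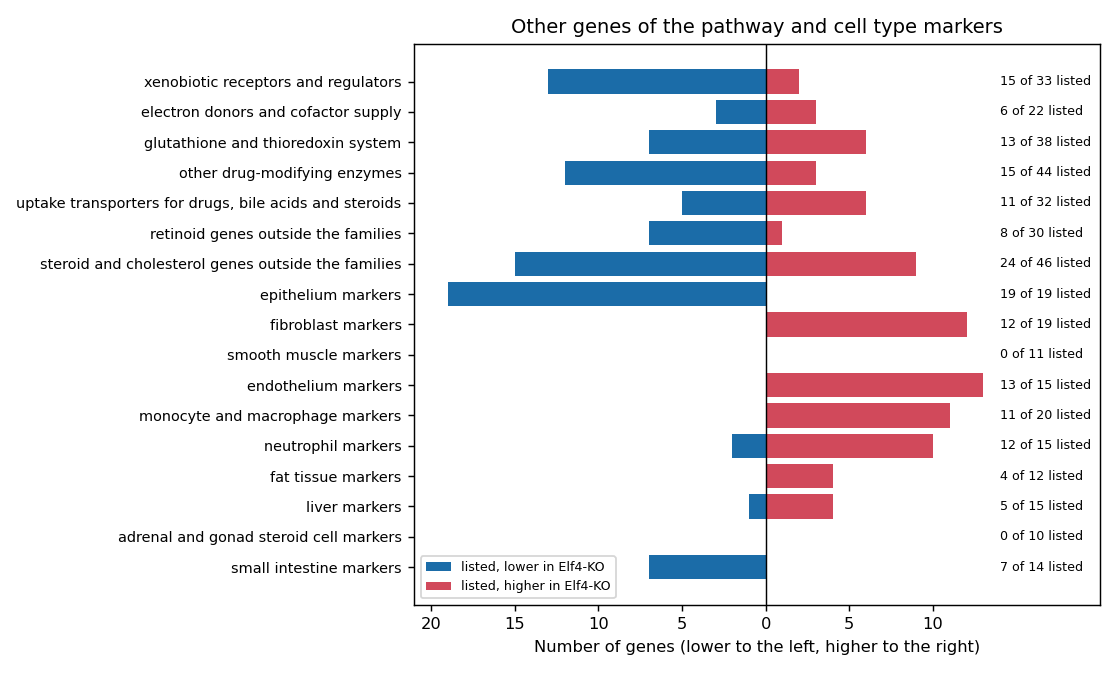
Number of listed genes that were lower (left, blue) or higher (right, red) in Elf4-KO in 7 lists of other pathway genes and 10 lists of cell type markers, with the number listed of the number in each list at the right. All 19 epithelial markers and 13 of 15 listed receptors and regulators lie to the left, and the listed fibroblast, endothelial and macrophage markers lie to the right.

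The table held a larger share of these families than of coding genes at large. Of 314 protein-coding genes in the mouse annotation whose symbols match the families, 90 (28.7%) were listed, beside 3833 of 21924 (17.5%) of all coding genes. The listed share was 10 of 23 for Gst, 8 of 19 for Ces, 20 of 50 for Abc, 6 of 16 for Akr1 and 24 of 100 for Cyp, and 1 of 22 for Ugt. Genes with too few reads to be tested and genes that missed either limit cannot be told apart among the rest.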

How the data were processed

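RNA was sequenced from 2 wild-type and 2 Elf4-KO colon samples, with a Vazyme mRNA kit per the labels' protocols. The submitters' processing notes name Bowtie 0.12.2, Cufflinks 2.2.1 and the build mm8, but not their roles. Per the file headers, the deposited table gives 1 FPKM value per gene and genotype, combined by the authors in a way not given in the sources used here, and the authors' p-value and q-value. Gene identifiers matched GENCODE M21 for 4116 of 4121 genes and all 90 members, and the coordinates are those of GRCm38, counted from 1.

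The members and lists were chosen with earlier results of these data known. No test could be run, because no values per sample were used. Log2 ratios used a pseudocount of 1. Values were given for every member of families with up to 5 members, otherwise for the 5 largest log2 ratios and the 3 largest against the family's majority. Other members were given values for their known role, after these were seen. Of each other list the 3 largest log2 ratios with at least 1 FPKM in the higher genotype were named, or every listed gene where there were up to 5, and further list genes were chosen after their values were seen. Transcripts were compared in windows of 50 bases, and a deposited locus over 1.5 times the annotated gene was called wide. Promoters came from RefSeq on GRCm38.p6. The counting script was tested on simulated data. Python 3.11.15, numpy 2.4.6, pandas 2.3.3 and matplotlib 3.10.9 were used.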

Additional observations from a re-analysis of the deposited data

How the results depend on the processing

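The alternatives were a q of at most 0.01, at least 4-fold, at least 1 or 5 FPKM in the higher genotype, pseudocounts of 0.1 and 0, centring on the median of all listed genes, leaving out overlapping loci and, added after the data were seen, leaving out wide loci or genes sharing over 20% of their windows. Of 91 counts and medians under these, 82 moved by less than 1.5 times. The median log2 ratio stayed below 0, while counts have no direction to change. At 4-fold, 55 members were left, 15 higher and 40 lower, with a median log2 ratio of -2.12. With at least 5 FPKM, 18 members were higher. Centring moved the median from -1.29 to -0.54. Without overlapping loci no Hsd gene was higher (0 in place of 1), with at least 1 FPKM 1 Sult gene was higher, and at a q of 0.01 6 Abc genes were lower. These follow from fewer genes being kept or from the shift in centre. Of 97 alternative log2 ratios of 49 genes, 26 (14 genes) moved by over 1.5-fold with a smaller pseudocount. A pseudocount cannot change the sign of a ratio, so the unchanged signs are no check.

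No paired analysis was possible because each genotype has a single combined value. For the same reason samples were not left out in turn and no other normalization was run. Protein identity between members was not run, since no protein sequences were used here. Depth is unknown, so the counting error of low values such as the 0.0760 FPKM of Cyp1a1 is unknown.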
